A study of Mus musculus with 12 samples.

Results

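Messenger RNA of p53 and of 9 genes that p53 is known to switch on was compared between hearts with and without a cardiomyocyte-specific loss of Cyb5r3. The 10 genes (Trp53, Mdm2, Cdkn1a, Ccng1, Phlda3, Trp53inp1, Eda2r, Zmat3, Aen and Sesn2) were chosen by name as p53 and well-known p53 targets out of 53700 genes in the count table. All 10 were matched by symbol to a single identifier and all 10 passed the filter on low counts, as did 17847 genes in all. Libraries came from 12 whole hearts of male mice, 1 per mouse, with 6 in the ac-WT group (controls) and 6 in the ac-CYB5R3–KO group (knockouts). Both groups carried Myh6-CreERT2, a tamoxifen-activated Cre recombinase driven by the cardiomyocyte Myh6 promoter. The genotypes were CYB5R3wt/wt in ac-WT and CYB5R3fl/fl in ac-CYB5R3–KO mice, on a mixed FVB/B6 background crossed back 3 times to C57BL/6J. Both groups were given tamoxifen at 33 mg/kg/d for 5 days, starting at an age of 10 to 13 weeks, and the hearts were those collected 5 days after the treatment. All hearts therefore share Cre and tamoxifen, floxed alleles were present in the knockout group only, and effects of Cre acting on floxed DNA cannot be told apart from effects of losing Cyb5r3.

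The transcription factor p53, encoded by Trp53 in the mouse, is kept low by the ubiquitin ligase MDM2 and accumulates when kinases of the DNA damage response or other stress signals release it. It acts as a tetramer on paired half-sites in DNA and switches on genes for cell cycle arrest, cell death, antioxidant defence and DNA repair, and also Mdm2, which closes a negative feedback loop. Because p53 is controlled largely as a protein, mRNA levels of its targets are a common readout of its activity. Adult cardiomyocytes rarely divide, and p53 in the heart has been studied under ischemia, pressure overload and anthracycline treatment.

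Promoter sequence is shown for the members with a p53 half-site close to the transcription start, to set their levels beside the letters that p53 is known to read. RefSeq promoters of GRCm38.p6, each from 250 bases before to 50 bases after a gene's start, were found for 8 of the 10 genes (10 windows). Trp53inp1 and Zmat3 had none. The p53 consensus half-site, a palindrome of 10 bases that reads the same on both strands, was present in windows of 5 members (Aen, Mdm2, Ccng1, Trp53 and Cdkn1a). It was not found in those of Phlda3, Eda2r and Sesn2 or in a second Cdkn1a window. Of all 32851 promoter windows, 2745 (8.36%) held the half-site and 118 (0.359%) held 2 or more. Capitals mark the half-sites in the stretches below, which are written 5′ to 3′ along the gene's strand.
Aen, chr7:78895912-78895971, plus strand: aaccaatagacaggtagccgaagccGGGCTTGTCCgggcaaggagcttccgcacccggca
Mdm2, chr10:117710910-117710969, minus strand: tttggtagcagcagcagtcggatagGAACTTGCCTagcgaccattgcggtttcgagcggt
Ccng1, chr11:40755437-40755496, minus strand: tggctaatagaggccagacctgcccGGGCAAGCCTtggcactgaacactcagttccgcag
Trp53, chr11:69580259-69580318, plus strand: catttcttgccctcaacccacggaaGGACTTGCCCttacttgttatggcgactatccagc
Cdkn1a, chr17:29090881-29090962, plus strand: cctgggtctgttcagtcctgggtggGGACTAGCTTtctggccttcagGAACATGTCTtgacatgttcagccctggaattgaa
The half-site began 121 bases before the start in Aen, 186 in Mdm2, 185 in Ccng1 and 75 in Trp53. The Cdkn1a window shown held 2, at 73 and 51 bases before its start. The second Cdkn1a window belongs to a start further downstream (chr17:29093519-29093818), and the half-sites shown lie outside it. In the other Aen window, set by an earlier start, the half-site began 10 bases after the start. A full site of 20 bases, made of 2 adjacent half-sites with at most 1 mismatch, was found in windows of Cdkn1a (51 bases before the start) and Ccng1 (195 bases before it), against 29 of all windows (0.0883%). Such matches describe the letters of these windows and not p53 binding in these hearts, which was not measured.

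Library totals ran from 43393183 to 53754284 counts in controls and from 43933454 to 51653683 in knockouts. Values below are CPM, the reads of a gene relative to library size, scaled by edgeR's TMM factors, which correct for differences in library composition. Cyb5r3 itself was 126 ± 38.4 CPM in controls (mean ± SD, n = 6) and 53.7 ± 9.07 CPM in knockouts. The groups did not overlap, and the log2 fold change was -1.22 (edgeR quasi-likelihood test, Benjamini-Hochberg adjusted p = 0.0450, exact permutation p = 0.00216). It was lower in all 21 alternative settings, from -1.49 to -1.03, but its adjusted p missed 0.05 in 10 of them. All 9 cardiomyocyte markers, such as Myh6, Tnnt2 and Ryr2, were detected. Of the 9, 7 were lower and 2 higher in knockouts, with a median log2 fold change of -0.42. Past an unadjusted edgeR p of 0.05 were 3, all lower, against 14.6% of all genes. The libraries of ac-WT mice 2 and 3 stood apart, with TMM factors of 0.570 and 0.723 against 1.04 to 1.22 in the knockout group. Genes of the mitochondrial genome took 35.3% and 34.8% of their counts, against 24.8% to 30.1% in the other controls and 24.0% to 28.3% in knockouts. Their summed cardiomyocyte markers were 47814 and 38076 CPM, against 20554 to 24991 CPM in the other 4 controls and 15639 to 25826 CPM in knockouts. Their summed fibroblast markers were 929 and 922 CPM, against 2484 to 3712 CPM in the other controls and 2224 to 3413 CPM in the knockout group. In whole-heart RNA, fewer cells of a type and less RNA per cell cannot be told apart. Results are therefore given with and without these 2 hearts.

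None of the 10 genes passed a test with all 12 hearts, TMM scaling and no covariate. Of the 10 genes, 0 passed an adjusted p of 0.05 in edgeR, as against 0.101% of all genes tested (18 of 17847), and 0 passed at an unadjusted p of 0.05, as against 14.6% of all genes. DESeq2 and limma-voom also gave 0 of 10 at either threshold. In an exact permutation test of the group means, 0 of 10 passed p = 0.05, against 14% of all genes, and 0 of 10 had groups that did not overlap, against 1.55% of all genes. A list of 10 genes is too short for these shares to set it apart from the other genes. By sign, 7 of the 10 had a log2 fold change above 0, against 48.8% of all genes, and their median was 0.13, against -0.01 over all genes tested. With total counts in place of TMM, 9 of 10 were above 0 with a median of 0.39, against a median of 0.26 over all genes. Under that scaling Aen alone passed an unadjusted p of 0.05, against 11.5% of all genes. Its log2 fold change was 0.38 (edgeR adjusted p = 0.410, exact permutation p = 0.00216). Estimates with TMM ran from -0.35 for Cdkn1a to 0.50 for Trp53inp1.

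**Figure D1:**
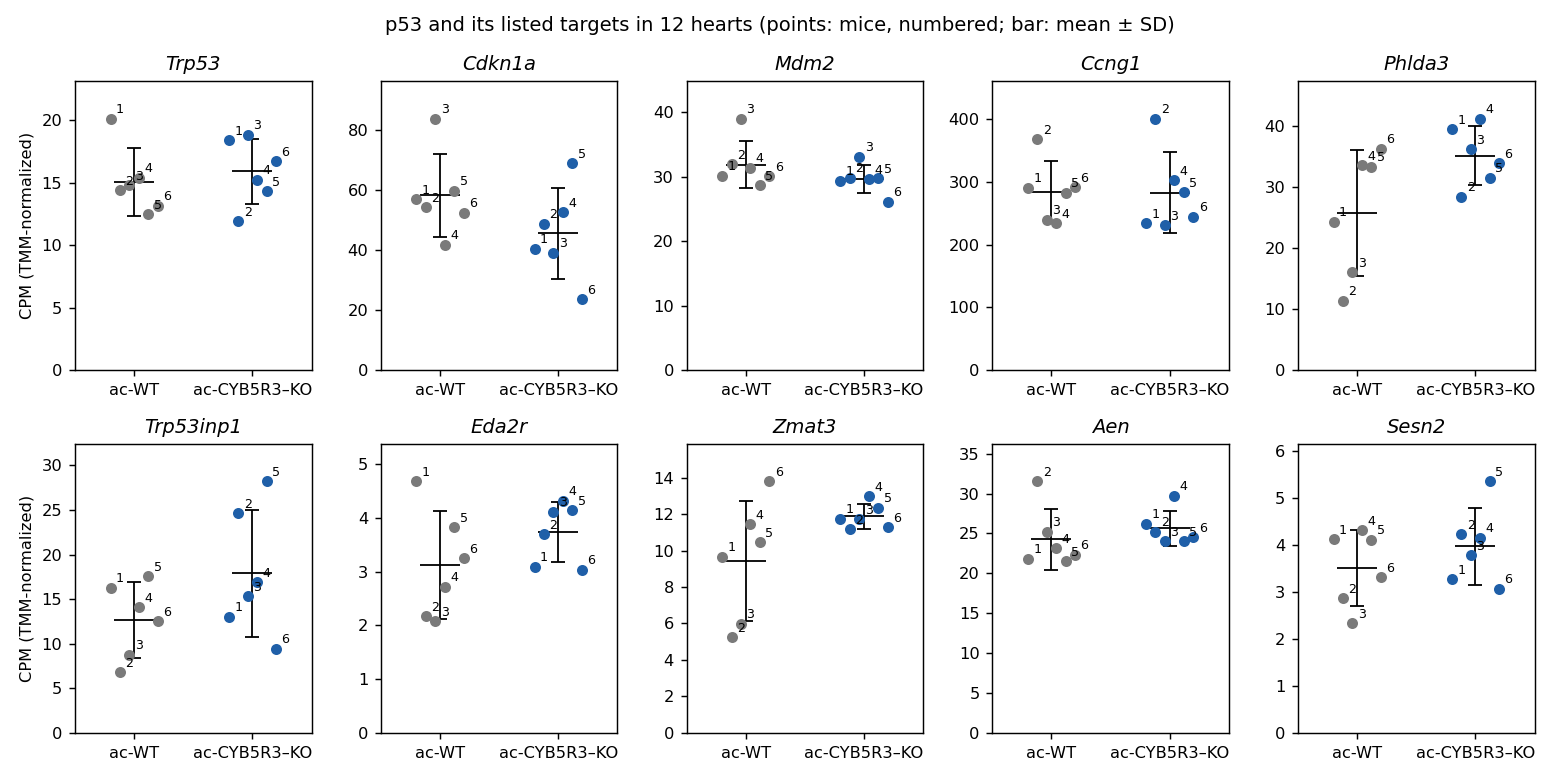
Level of each of the 10 genes in each heart, in TMM-scaled CPM on linear axes. Numbered points are single hearts by group, and bars give the group mean ± SD. The ac-WT and ac-CYB5R3–KO points overlap for every gene, and the lowest points of Phlda3, Zmat3, Trp53inp1, Eda2r and Sesn2 are those of ac-WT mice 2 and 3.

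Trp53 (ENSMUSG00000059552, chr11:69393861-69405375 of NCBIM37, plus strand), the gene of p53 itself, was at similar levels in both groups. The lowest, median and highest values were 12.5, 14.6 and 20.1 CPM in controls and 11.9, 16.0 and 18.8 CPM in knockouts, so that nearly the whole knockout range lay inside that of the controls. The log2 fold change was 0.08 ± 0.14 (SE), with a 95% interval of -0.22 to 0.37 (edgeR adjusted p = 0.811). As a fold, that interval spans 0.861 to 1.29 times the control level.

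Mdm2 (ENSMUSG00000020184, chr10:117125944-117147814, minus strand), which encodes the ligase that marks p53 for degradation and is itself a p53 target, had the narrowest spread among controls on the log2 scale. It was between 28.7 and 39.0 CPM in controls (median 30.8) and between 26.2 and 33.1 CPM in knockouts (median 29.7). The highest heart was ac-WT mouse 3, at 39.0 CPM, while the other controls reached at most 31.9 CPM. The log2 difference was -0.10 ± 0.09 (SE), and the 95% interval reached 1.07-fold on the higher side (edgeR adjusted p = 0.610). Without ac-WT mice 2 and 3 the estimate was -0.01. With total counts in place of TMM it was 0.18, below the median of all genes under that scaling.

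Cdkn1a (ENSMUSG00000023067, chr17:29227924-29237667, plus strand) encodes p21, the inhibitor of cyclin-dependent kinases through which p53 arrests the cell cycle, and it had the lowest estimate of the 10. Values ran from 41.7 to 83.6 CPM in controls (median 55.6) and from 23.6 to 68.8 CPM in knockouts (median 44.6). The lowest 3 hearts were all knockouts, at 23.6, 39.0 and 40.4 CPM, but the other 3 knockout hearts lay among the controls. The log2 fold change was -0.35 ± 0.22 (SE), with an interval from 0.563-fold to 1.09-fold (edgeR adjusted p = 0.472, exact permutation p = 0.156). Leaving out ac-CYB5R3–KO mouse 5, the highest of its group, gave -0.51 (edgeR adjusted p = 0.335), while leaving out the highest control, ac-WT mouse 3, gave -0.21, leaving out the lowest knockout, mouse 6, gave -0.22, and total counts gave -0.07. Ccng1 (ENSMUSG00000020326, chr11:40562054-40568813, minus strand), which encodes cyclin G1, a p53-induced partner of a protein phosphatase, was nearly equal in mean level, at 284 ± 48.0 CPM in controls and 282 ± 64.4 CPM in knockouts (SD, n = 6). It varied from 234 to 368 CPM among controls and from 230 to 400 CPM among knockouts, and mouse 2 of each group was the highest. Its log2 fold change of -0.01 ± 0.16 changed sign in 8 of 21 alternative settings and had a 95% interval of -0.35 to 0.33.

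Phlda3, Trp53inp1 and Zmat3 had the highest estimates of the 10. Phlda3 (ENSMUSG00000041801, chr1:137662696-137665713, plus strand), which encodes a small protein that restrains AKT signaling, was between 28.4 and 41.2 CPM in knockouts (median 35.1). In ac-WT hearts it was 11.4 and 16.1 CPM in mice 2 and 3 and 24.3 to 36.3 CPM in the other 4, a range that the knockout values mostly share. In log2 terms the difference was 0.44 ± 0.24 (edgeR adjusted p = 0.416, exact permutation p = 0.0758). Trp53inp1 (ENSMUSG00000028211, chr4:11083578-11101526, plus strand), which encodes a stress protein that acts with p53 and in autophagy, was the most variable in the knockout group, from 9.46 to 28.2 CPM (median 16.1). The controls ran from 6.78 to 17.6 CPM (median 13.3), with the lowest values again in mice 2 and 3, at 6.78 and 8.77 CPM. Only knockout mice 2 and 5, at 24.6 and 28.2 CPM, lay above all controls. The fitted log2 change was 0.50 ± 0.28, and the 95% interval of the fold reached from 0.933 to 2.13 (edgeR adjusted p = 0.424). Zmat3 (ENSMUSG00000027663, chr3:32233718-32264600, minus strand), which encodes an RNA-binding zinc finger protein and splicing regulator, was tightly held in knockout hearts, between 11.2 and 13.0 CPM (median 11.7). Control values were 5.24 and 5.99 CPM in mice 2 and 3 and 9.67 to 13.8 CPM in the rest, so that every knockout value lay within the control range. Its log2 difference was 0.33 ± 0.20 (edgeR adjusted p = 0.457).

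Eda2r and Aen belong to the cell death branch. Eda2r (ENSMUSG00000034457, chrX:94529179-94572555, minus strand), a receptor of the TNF receptor family for ectodysplasin A2, was low in both groups. It ran from 2.08 to 4.67 CPM in controls (median 2.98) and from 3.03 to 4.31 CPM in knockouts (median 3.90), with all knockout values inside the control range. Between 62 and 248 reads per heart stand behind these values, the fewest of the 10 genes. The log2 fold change was 0.25 ± 0.20 (edgeR adjusted p = 0.566). Aen (ENSMUSG00000030609, chr7:86040740-86056095, plus strand), a nuclease that is induced by p53 and degrades DNA during apoptosis, was between 21.5 and 31.5 CPM in controls (median 22.8) and between 24.1 and 29.7 CPM in knockouts (median 24.9). The highest of all 12 was ac-WT mouse 2, at 31.5 CPM. The log2 fold change over all hearts was 0.08 ± 0.11 (edgeR adjusted p = 0.742). Sesn2 (ENSMUSG00000028893, chr4:132047947-132066416, minus strand), a leucine sensor upstream of mTORC1 with a part in antioxidant defence, ran from 2.33 to 4.32 CPM in controls (median 3.72) and from 3.07 to 5.36 CPM in knockouts (median 3.97). The lowest were again ac-WT mice 2 and 3, at 2.86 and 2.33 CPM. The fitted log2 change was 0.18 ± 0.18 (edgeR adjusted p = 0.660).

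**Figure D2:**
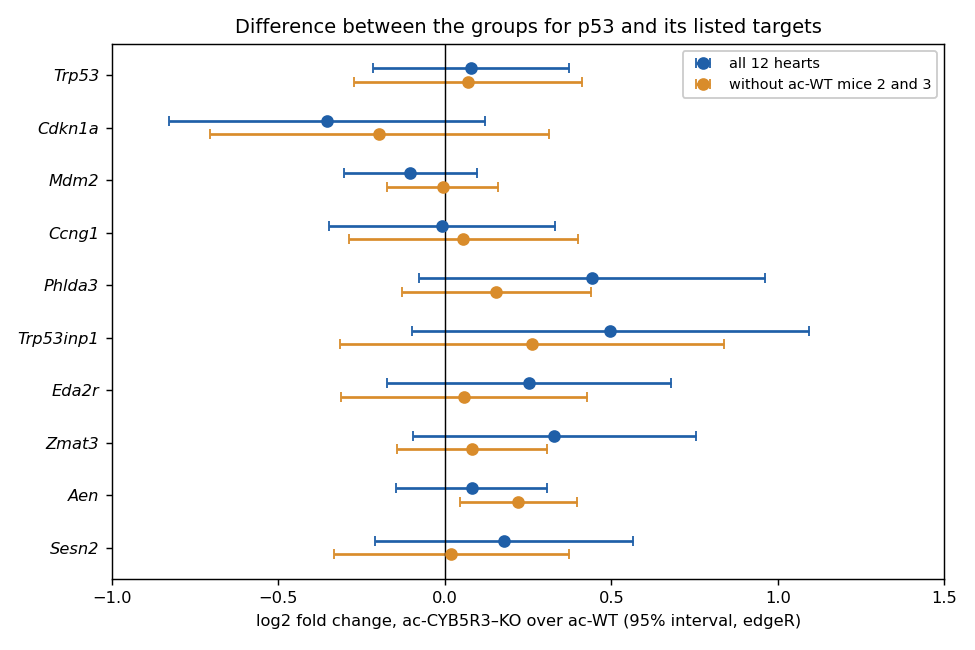
Log2 fold change of each gene, ac-CYB5R3–KO against ac-WT, as a point with its 95% interval from edgeR, for all 12 hearts and without ac-WT mice 2 and 3. With all hearts every interval includes 0, and without the 2 hearts the interval of Aen, from 0.04 to 0.40, does not.

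Without ac-WT mice 2 and 3 (4 against 6 hearts), the highest estimates moved towards 0 and Aen moved away from it. The log2 fold change of Phlda3 went from 0.44 to 0.15, that of Zmat3 from 0.33 to 0.08, that of Trp53inp1 from 0.50 to 0.26, that of Eda2r from 0.25 to 0.06 and that of Sesn2 from 0.18 to 0.02. Cdkn1a went from -0.35 to -0.20. Aen was 24.1 ± 0.726 CPM in the 4 remaining ac-WT hearts and 28.1 ± 2.39 CPM in the 6 ac-CYB5R3–KO hearts, and the groups did not overlap, with at most 25.1 CPM in controls and at least 26.1 CPM in knockouts. Its log2 fold change was 0.22 with a 95% interval of 0.04 to 0.40 (edgeR unadjusted p = 0.0187, adjusted p = 0.507). The exact permutation test gave p = 0.00952 for Aen, the smallest that 210 placements allow. Shares of all genes without overlap, or at that smallest p, were not computed over these hearts. Left out here was ac-WT mouse 2, the highest heart of all for Aen, at 31.5 CPM. Aen was then 1 of 10 members past an unadjusted p of 0.05, against 7.98% of 18299 genes tested, and 0 passed after adjustment, against 0.0383% of all genes. Of the 10 estimates, 8 were above 0 with a median of 0.06, against 0.02 over all genes. The low values of Phlda3, Zmat3, Trp53inp1, Eda2r and Sesn2 coincided with the high cardiomyocyte and low fibroblast marker sums of these hearts, and the part of cell composition in them was not tested.

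Levels of different genes can be set side by side only per length, here as CPM per kilobase of annotated exons. By this measure Ccng1 was the most abundant, at 80.9 ± 13.7 in controls (SD, n = 6), followed by Cdkn1a at 26.1 ± 6.27, Phlda3 at 16.6 ± 6.62, Mdm2 at 6.29 ± 0.722, Aen at 4.27 ± 0.668 and Trp53 at 3.73 ± 0.667. The lowest were Trp53inp1 at 1.96 ± 0.653, Zmat3 at 1.17 ± 0.404, Sesn2 at 1.01 ± 0.232 and Eda2r at 0.529 ± 0.171. The ranges of neighbours in this order overlapped over the 6 control hearts, except between Ccng1 and Cdkn1a, between Mdm2 and Aen, and between Trp53 and Trp53inp1. The order in knockouts was the same except that Phlda3, at 22.5, stood above Cdkn1a, at 20.5.

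The 10 genes did not vary together as a single group from heart to heart. Correlations of their log2 CPM were taken over 12 hearts after subtracting each group's mean, and they are given as a description, since the values of a heart share its library, its scaling and its cell composition. Over all 45 pairs the median r was 0.0988 and 24 pairs were positive. Phlda3 and Zmat3 had the highest r over 12 hearts, 0.948, but r = 0.687 over the 10 hearts without ac-WT mice 2 and 3. Trp53inp1 and Sesn2 followed each other with and without these hearts, with r = 0.880 and 0.900, and theirs was the highest over 10. Cdkn1a and Trp53inp1 had r = 0.457 over 12 hearts and 0.877 over 10, so that 2 hearts set the first value. Aen ran opposite to Phlda3 over 12 hearts (r = -0.654) and with it over 10 (r = 0.511), a reversal that also rests on the 2 hearts. The 9 pairs of Trp53 with its targets ran from -0.574 to 0.127, and 3 were positive.

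**Figure D3:**
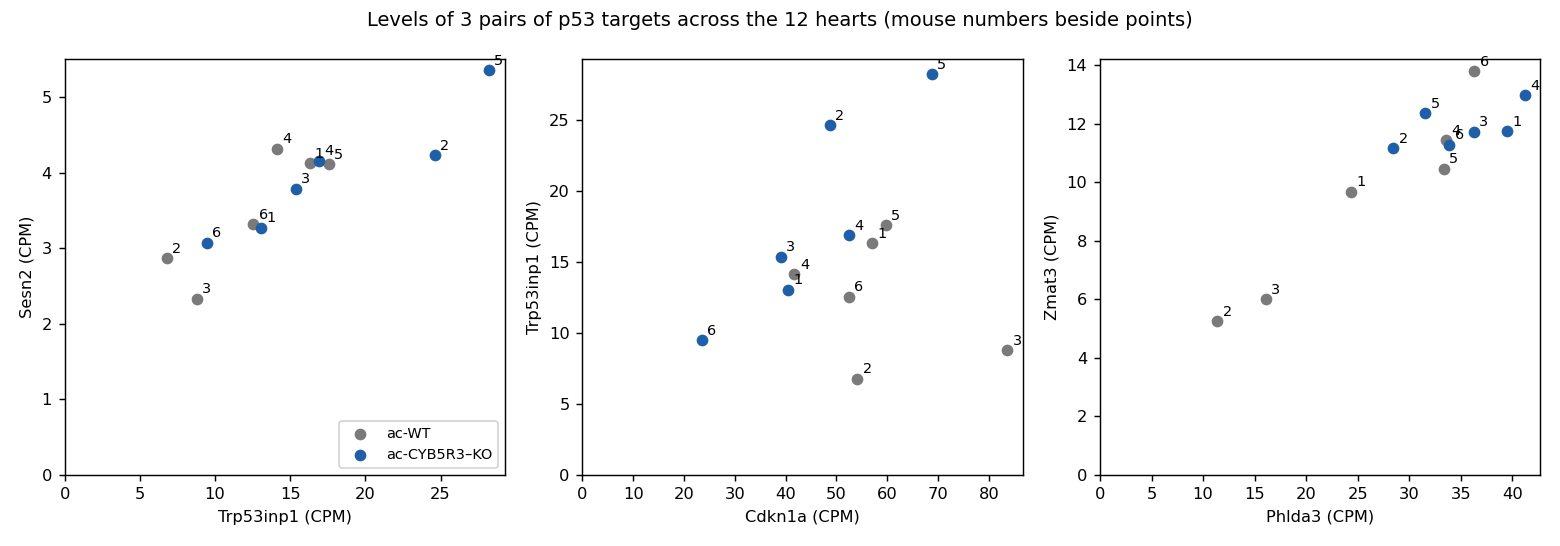
Levels of 3 pairs of p53 targets in each heart, in CPM on linear axes, with points coloured by group and mouse numbers beside them. Phlda3 and Zmat3 fall along a line on which ac-WT mice 2 and 3 are lowest (11.4 and 5.24 CPM in ac-WT mouse 2).

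Other genes of the pathway were taken from 10 lists with 133 genes, of which 132 were matched and 127 tested. Of the 127, 17 passed an unadjusted p of 0.05 in edgeR (13.4%, against 14.6% of all genes). Of these, 8 were higher and 9 lower in knockouts, where 4.91% of all genes were higher and 9.73% lower, and 0 passed after adjustment in edgeR. Groups did not overlap for 3 of the 127 (2.36%, against 1.55% of all genes). The count of 17 was 8 without ac-WT mice 2 and 3, 11 without ac-WT mouse 2 and 32 without ac-WT mouse 1, and the share of all genes moved with it, to 7.98%, 10.4% and 17%. Without ac-WT mice 2 and 3, Atf3, Cdkn1c, Cdkn2b, Mthfd2, Tigar, Tnfrsf10b and Triap1 of the genes named below stayed past that threshold. The estimates that moved by more than 1.5 times were those of Fbxw7 (-0.64 to -0.11), Lpin1 (-0.66 to -0.26), Ung (-0.79 to -0.32), Ercc5 (-0.40 to -0.18), Nupr1 (0.45 to 0.24), Cdkn2b (0.96 to 0.54), Rrm2 (0.67 to 0.39), Cdkn2a (0.60 to 0.36), Cdkn1c (-0.79 to -0.49) and Bbc3 (0.38 to 0.25). The counts by list below are at that unadjusted threshold.

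The p53 targets for arrest and growth control gave 0 higher and 2 lower of 10 tested, with a median log2 fold change of 0.23. Btg2, an antiproliferative early response gene, ran from 45.9 to 188 CPM in controls (median 88.6) and from 38.5 to 86.1 CPM in knockouts (median 54.4), with a log2 difference of -0.85 (edgeR adjusted p = 0.253). Fbxw7, a substrate receptor of a ubiquitin ligase for cyclin E and MYC, ran from 16.8 to 55.6 CPM in controls (median 25.4) and from 18.6 to 22.5 CPM in knockouts, all inside the control range. The fitted log2 change was -0.64 (edgeR adjusted p = 0.288), its exons overlap those of another annotated gene, and its estimate was 0.06 with 1 surrogate variable.

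Apoptosis targets split in direction, with 2 higher and 1 lower of 10 tested and a median of 0.04. Tnfrsf10b, the mouse death receptor for TRAIL, was between 5.35 and 6.67 CPM in controls (median 5.96) and between 3.70 and 5.24 CPM in knockouts (median 4.59). All 6 knockouts lay below all controls, with a log2 fold change of -0.38 ± 0.11 (edgeR adjusted p = 0.188). The exact permutation test gave p = 0.00216, the smallest it can give. Over the 21 alternative settings the estimate ran from -0.42 to -0.10, with an unadjusted p under 0.05 in 20. Bbc3, which encodes the BH3-only protein PUMA, ran from 2.91 to 4.96 CPM in controls and from 4.31 to 6.20 CPM in knockouts, with a log2 difference of 0.38 (edgeR adjusted p = 0.279). Triap1, which encodes a p53-induced protein that protects from apoptosis and carries lipids in mitochondria, ran from 7.66 to 9.69 CPM in controls and from 9.08 to 11.6 CPM in knockouts. That is a log2 fold change of 0.27 (edgeR adjusted p = 0.224, exact permutation p = 0.00433).

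Targets for metabolism and redox balance gave 1 higher and 1 lower of 10 tested, with a median of -0.05. Tigar, a phosphatase that lowers glycolytic flux, was 22.2 ± 3.05 CPM in controls and 26.8 ± 4.46 CPM in knockouts (SD, n = 6), with a log2 difference of 0.27 (edgeR adjusted p = 0.333), and its exons overlap those of another gene. Lpin1, a phosphatidate phosphatase and transcriptional coactivator, ran from 23.5 to 72.8 CPM in controls and from 18.2 to 34.6 CPM in knockouts, with a log2 difference of -0.66 (edgeR adjusted p = 0.252). Targets for DNA repair and other functions gave 2 lower of 12, with a median of -0.01. Ercc5, the endonuclease XPG of nucleotide excision repair, ran from 10.0 to 19.3 CPM in controls and from 8.69 to 11.9 CPM in knockouts. Its log2 difference was -0.40 (edgeR adjusted p = 0.268), and -0.46 to -0.07 over the 21 alternative settings. Rps27l, a ribosomal protein paralog induced by p53, was at 65.3 ± 7.76 CPM in controls and 56.0 ± 2.96 CPM in knockouts (SD, n = 6), with a log2 difference of -0.22 (edgeR adjusted p = 0.307) that was 0.04 with total counts in place of TMM.

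Upstream of p53, no gene passed in the edgeR fit with the filter on low counts, TMM and all hearts, where 14.6% of all genes did. Of 16 regulators and family members tested, 0 passed an unadjusted p of 0.05 in edgeR (median log2 fold change -0.06), and the lowest p was that of Cdkn2a. Its locus encodes p16 and the MDM2 inhibitor ARF, and its level was 0.167 to 0.737 CPM in controls and 0.319 to 0.863 CPM in knockouts, from 6 to 44 reads per heart (log2 fold change 0.60, edgeR adjusted p = 0.431). It passed in 1 of 20 alternative settings, without ac-WT mouse 5 (0.88). Of 26 sensors, kinases and break repair genes, 0 passed (median 0.07), with Chek1, the checkpoint kinase downstream of ATR, nearest at 0.619 to 1.79 CPM in knockouts and 0.638 to 1.11 CPM in controls (log2 fold change 0.55, edgeR adjusted p = 0.354). Chek1 passed that unadjusted threshold in 6 of 21 alternatives, which were total counts (0.83), no filter (0.57), and leaving out ac-WT mouse 1 (0.65) or 2 (0.63) or ac-CYB5R3–KO mouse 2 (0.69) or 4 (0.65). Repair of oxidised bases gave 1 lower of 14 (median 0.03), which was Ung, the uracil DNA glycosylase. Ung ran from 3.26 to 14.7 CPM in controls and from 3.77 to 5.16 CPM in knockouts, all inside the control range (log2 fold change -0.79, edgeR adjusted p = 0.245).

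**Figure D4:**
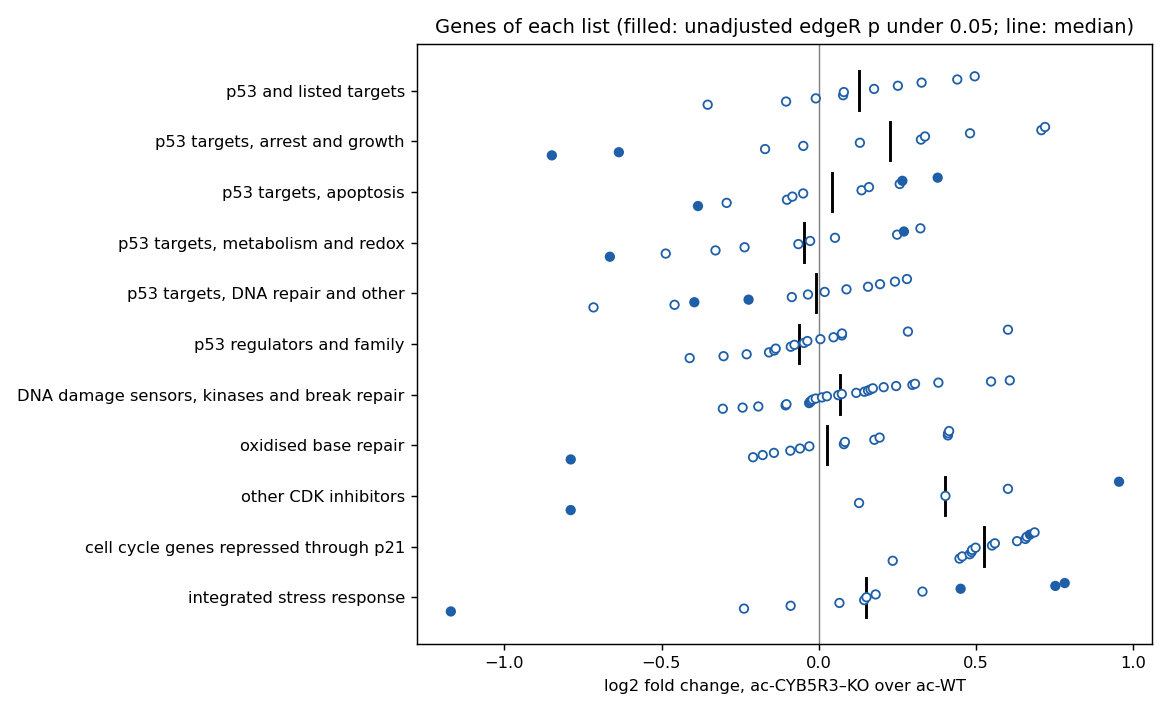
Log2 fold change of every tested gene, ac-CYB5R3–KO against ac-WT, by list, with a bar at each list's median and filled points at an unadjusted p under 0.05 in edgeR. The cell cycle list lies above 0 for all 14 genes, and the p53 targets lie on both sides of 0.

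Cell cycle genes that p53 is known to repress through p21 were above 0 for 14 of 14, with a median log2 fold change of 0.53, against 48.8% of all genes above 0. One gene, Rrm2, a subunit of ribonucleotide reductase, passed an unadjusted p of 0.05, at 5.09 ± 2.64 CPM in controls and 8.15 ± 1.71 CPM in knockouts (SD, n = 6), with a log2 difference of 0.67 (edgeR adjusted p = 0.335). The 14 stayed above 0 in all 21 alternative settings, with medians from 0.31 to 0.84, while the number past an unadjusted threshold of 0.05 ranged from 0 without ac-WT mice 2 and 3 to 12 without ac-WT mouse 1, where 7.98% and 17% of all genes passed. These genes are expressed together in dividing cells and are not independent of one another. Among markers of other cells, 5 of 5 matched red blood cell genes were above 0, with summed levels of 222 to 4487 CPM in controls and 1323 to 12228 CPM in knockouts. Summed lymphocyte markers were 11.1 to 23.7 CPM and 18.0 to 35.6 CPM, in the same order. A list of 9 cartilage and airway markers summed to 4.44 to 41.1 CPM in controls and 59.1 to 129 CPM in knockouts, nearly all of it from Comp (means of 16.2 and 73.5 CPM) and Col11a1 (4.18 and 27.2 CPM), both extracellular matrix genes. The airway markers Scgb1a1, Sftpc and Foxj1 were at or near 0, with means of at most 0.0820 CPM in knockouts. Col2a1, the main cartilage collagen, had means of 0.111 CPM in controls and 0.602 in knockouts (log2 fold change 2.34, edgeR adjusted p = 0.173). Of the 5 tested genes of this list, 4 were higher at an unadjusted edgeR p of 0.05, against 4.91% of all genes, and 0 passed after adjustment. Among tested genes of the other marker lists, 6 of 7 macrophage, 3 of 3 Schwann cell and 3 of 5 smooth muscle and pericyte genes were below 0. So were 3 of 6 fibroblast, 3 of 5 endothelial and 1 of 1 adipocyte genes. At an unadjusted edgeR p of 0.05, 2 smooth muscle and 2 Schwann cell genes were lower, against 9.73% of all genes. The part of cell composition, red blood cells and lymphocytes included, in the cell cycle values was not tested.

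Besides p21, CDK inhibitors gave 1 higher and 1 lower of 5 tested. Cdkn2b, which encodes p15, ran from 0.278 to 2.17 CPM in controls and from 2.33 to 2.94 CPM in knockouts, with no overlap (log2 fold change 0.96, edgeR adjusted p = 0.268, exact permutation p = 0.00216). Cdkn1c, which encodes p57, ran from 7.57 to 18.7 CPM in controls and from 5.20 to 8.72 CPM in knockouts, with 4 knockouts below all controls (log2 fold change -0.79, edgeR adjusted p = 0.184). The integrated stress response, a translation-control pathway that also induces Sesn2, gave 3 higher and 1 lower of 11. Mthfd2, a mitochondrial folate enzyme, was between 2.91 and 7.66 CPM in controls and between 7.78 and 9.75 CPM in knockouts, with no overlap (log2 fold change 0.75, edgeR adjusted p = 0.173, exact permutation p = 0.00216). Chac1, a glutathione-degrading enzyme, had a log2 fold change of 0.78 (edgeR adjusted p = 0.272), and Nupr1, a stress-induced chromatin protein, one of 0.45 (edgeR adjusted p = 0.321). Atf3, a stress-induced transcription factor, ran from 7.77 to 49.4 CPM in controls and from 6.69 to 14.3 CPM in knockouts (log2 fold change -1.17, edgeR adjusted p = 0.195). None of these passed after adjustment over the 17847 genes in edgeR. With DESeq2, which called 2.53% of all genes, 4 of the 127 did: Mthfd2 (DESeq2 adjusted p = 0.0260), Tnfrsf10b (0.0389), Cdkn1c (0.0416) and Atf3 (0.0476).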

How the data were processed

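The authors deposited raw counts, whole numbers of reads per Ensembl gene and heart, from stranded total RNA libraries read as 75 bp reads. The labels name STAR, featureCounts and GRCm39, whereas the study's methods name mm9. Strand setting and annotation are not given in the sources used here. Gene coordinates and exon lengths are those of GENCODE for NCBIM37 and symbols come from a reference table (31027 of 53700 identifiers, 57.8%). In that annotation no exon of the 10 members overlaps another gene's.

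Counts were filtered by filterByExpr (minimum count 10), scaled by TMM and tested with edgeR 4.0.16 in R 4.3.3 (quasi-likelihood, two-sided, no covariate, Benjamini-Hochberg over 17847 genes). Exact permutation tests, two-sided over 924 placements, used log2 CPM with a prior count of 2 and cannot go below p = 0.00216. Alternatives used DESeq2 1.42.0, limma-voom 3.58.1, sva 3.50.0, other scalings and filters, and left out hearts. The tests were checked on simulated counts. The members and lists were chosen with earlier results of these data known. Listed genes are named if p was under 0.05 (at most 5 a list, lowest p first), otherwise the gene with the lowest p. Intervals and p-values cover the spread between mice.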

Additional observations from a re-analysis of the deposited data

Results flagged for a closer look

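Dixon's test at 95% was applied to 60 groups of 6 values, and 3 held a heart far from the other 5, where chance gives about 1 group in 20. Mdm2 was 39.0 CPM in ac-WT mouse 3, against 28.7 to 31.9 CPM in the rest of its group. Aen was 31.5 CPM in ac-WT mouse 2, against 21.5 to 25.2 CPM. Rps27l was 50.2 CPM in ac-WT mouse 1, against 65.5 to 71.6 CPM.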

How the results depend on the processing

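Of 210 values of the members under 21 alternative settings, 200 kept their sign, and no member passed an adjusted p of 0.05 in any (lowest 0.210). Genes called over the whole table, 18 in edgeR, were 451 with DESeq2, 2 with limma-voom, 8 with DESeq2 size factors, 8 with total counts, 35 with no filter, 3 with 1 surrogate variable, 7 without ac-WT mice 2 and 3, and 2 to 38 when 1 heart was left out. Members past an unadjusted p of 0.05, 0 in edgeR, were 1 with total counts (Aen), 1 with a surrogate variable (Aen), 1 without ac-WT mice 2 and 3 (Aen) and 0 to 2 with 1 heart left out. The shares of all genes past that threshold were 11.5%, 7.85%, 7.98% and 10.4% to 18.7%, in the same order. Members past the exact permutation test were 1 with total counts and 1 without ac-WT mice 2 and 3, Aen in both. They were 0 to 2 with 1 heart left out, and shares of all genes past that test were not computed in these settings. The leave-one-out passes in either test were Eda2r without ac-WT mouse 1 (0.40), Aen without mouse 2 (0.18), Phlda3 without mouse 4 or 5, Phlda3 (0.56) and Zmat3 (0.47) without mouse 6, Cdkn1a without ac-CYB5R3–KO mouse 5 (-0.51) and Trp53inp1 without mouse 6 (0.63), with log2 fold changes in parentheses. The 17 other pathway genes became 10 with 1 surrogate variable, 8 without ac-WT mice 2 and 3, and 11 to 32 with 1 heart left out; 4 of them passed an adjusted p of 0.05 with DESeq2 and 0 in each of the other 20 settings. Signs reversed for Mdm2 (0.18 with total counts), Ccng1 (0.27 with total counts, 0.018 with no filter, 0.048 with a surrogate variable, 0.056 without the 2 hearts, -0.13 to 0.088 with 1 heart left out, and above 0 at 0.088, 0.040, 0.044 and 0.030 without ac-WT mouse 2 and ac-CYB5R3–KO mice 1, 3 and 6), Zmat3 (-0.013) and Fbxw7 (0.060) with a surrogate variable, and Rps27l (0.044) with total counts. Cyb5r3 stayed lower in all 21 settings, with an adjusted p of up to 0.315 (total counts). The cause of these changes was not tested, apart from the shift of all genes that total counts bring.

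Mice with the same replicate number are different animals. Their deviations correlated at -0.0806 to 0.353 over 6 pairs (mean 0.144), against a mean of -0.0282 over the 30 other control and knockout pairs. The numbers were not read as pairs in the tests above, and a batch shared by same-numbered hearts was not tested. A fit with replicate block was run all the same, and it called 2 genes over the whole table. At an unadjusted p of 0.05, 1 member passed (Phlda3, log2 fold change 0.55, edgeR adjusted p = 0.296), against 14.7% of all genes. With 6 mice a group, the 95% intervals of Phlda3 and Trp53inp1 include both no change and rises of up to 1.95-fold and 2.13-fold.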
